A study of Mus musculus with 7 samples.

Results

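The 9 genes described here, called members below, encode synaptic proteins through which secreted or membrane-bound glypicans act on neurons, or close relatives of such proteins, and their RNA was followed across 7 mouse brain tumors. They are the neuronal pentraxins Nptx1, Nptx2 and Nptxr, the receptor phosphatases of the LAR type Ptprs, Ptprd and Ptprf, the adhesion proteins Lrrtm3 and Lrrtm4, and the orphan receptor Gpr158. Members were taken by symbol, with no threshold on their values, though earlier results of these data were known. Each was found among the 19257 genes of the deposited table. All 9 also passed the filter on low values (a mean normalized count of at least 10 over the 7 libraries), which left 14782 genes to test. Nptxr passed it only through its high value in GPC6 replicate 1.

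The tumors came from a glioma model in which progenitors lining the lateral ventricles of mouse embryos were electroporated in utero. A single construct carried Cas9 and CRISPR guides that disrupt tumor suppressors such as Trp53 and Nf1, and a piggyBac transposon marked the cells with a GFP reporter. The 3xCR tumors, which the labels call control, carried no more than this (3 libraries, replicates 2 to 4), and the GPC6 tumors also overexpressed GPC6 from the transposon (4 libraries, replicates 1 to 4). Each library was bulk poly(A) RNA of 1 brain, taken at the endpoint under fluorescence microscopy from mice of CD-1 and C57BL/6 background. Tumor cells and host brain cells are therefore mixed, no tumor-free brain was among the libraries, and the sex, age and batch behind each library are not given in the sources used here. In such tissue, fewer cells of a type and less RNA per cell cannot be told apart.

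Glypicans are heparan sulfate proteoglycans held to the membrane by a lipid anchor, and astrocytes release some of them to promote the formation of excitatory synapses. In the best known pathway a released glypican binds a LAR-type phosphatase on the axon, the axon releases the pentraxin encoded by Nptx1, and the pentraxin gathers AMPA-type glutamate receptors on the facing dendrite. Glypicans on the axon also serve as ligands across the synaptic cleft, for Lrrtm4 on dendrites and for Gpr158 at certain hippocampal synapses.

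The libraries held 7197692 to 18879762 reads on genes, with a median of 10566182. A count of 0 allows 1.64 to 4.64 normalized counts, depending on the library (3 reads, counting error only). Gpc6, the gene added in the GPC6 group, read 217, 226 and 126 normalized counts in the 3xCR libraries and 675, 263, 3434 and 5084 in the GPC6 libraries. All 4 GPC6 libraries lay above all 3xCR libraries, but GPC6 replicate 2 stood only a little above the highest control. The libraries also differed in neuronal RNA. All 15 genes of a pan-neuronal list (Snap25, Syt1, Rbfox3 and others) had a higher mean in the GPC6 group, and their summed level ran from 10123 to 16864 normalized counts in 3xCR and from 14273 to 79851 in GPC6. The score of that list, its mean log2 level in a library relative to its mean over all libraries, was -0.23, -0.71 and -1.60 in 3xCR replicates 2 to 4 and 2.10, -0.97, 1.38 and 0.02 in GPC6 replicates 1 to 4. GPC6 replicate 1 stood apart in 2 further lists, with a proliferation score of -2.92 (the other 6 libraries, -0.12 to 1.03) and a score of 3.43 for genes of hypothalamic neurons (the others, -1.22 to 0.17).

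Promoters of 4 members are shown because these genes mark the ends of the range met below. Gpr158 followed neuronal RNA most closely, Lrrtm3 least, and Ptprs and Ptprf varied least between libraries. Each line gives the 250 bases before the transcription start on the strand of the gene, from RefSeq (GRCm38.p6), with capitals marking GC boxes (GGGCGG or its complement CCGCCC) and E-boxes (CACGTG, which reads the same on both strands). The windows lie at chr2:21367317-21367566 (plus strand), chr10:64090256-64090505 (minus), chr17:56476481-56476730 (minus, the first of 2 starts listed for Ptprs) and chr4:118291398-118291647 (minus).
Gpr158: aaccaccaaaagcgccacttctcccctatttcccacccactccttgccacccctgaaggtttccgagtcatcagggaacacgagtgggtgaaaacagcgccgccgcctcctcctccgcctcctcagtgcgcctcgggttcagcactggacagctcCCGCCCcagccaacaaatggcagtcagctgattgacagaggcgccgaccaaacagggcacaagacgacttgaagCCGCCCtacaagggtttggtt
Lrrtm3: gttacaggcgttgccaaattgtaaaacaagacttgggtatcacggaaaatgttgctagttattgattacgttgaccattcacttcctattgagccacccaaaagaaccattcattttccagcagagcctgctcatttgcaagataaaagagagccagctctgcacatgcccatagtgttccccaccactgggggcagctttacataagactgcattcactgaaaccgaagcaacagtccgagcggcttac
Ptprs: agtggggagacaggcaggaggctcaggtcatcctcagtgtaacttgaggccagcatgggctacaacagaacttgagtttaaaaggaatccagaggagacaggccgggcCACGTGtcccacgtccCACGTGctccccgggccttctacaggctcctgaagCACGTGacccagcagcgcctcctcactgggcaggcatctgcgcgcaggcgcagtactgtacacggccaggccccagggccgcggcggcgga
Ptprf: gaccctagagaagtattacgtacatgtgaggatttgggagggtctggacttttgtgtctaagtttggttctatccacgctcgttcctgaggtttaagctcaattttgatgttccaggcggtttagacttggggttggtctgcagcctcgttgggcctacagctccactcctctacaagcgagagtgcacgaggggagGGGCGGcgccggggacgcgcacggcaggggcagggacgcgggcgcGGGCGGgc
The Gpr158 window held 2 GC boxes and no E-box, the Ptprf window 2 GC boxes and no E-box, the Ptprs window printed 3 E-boxes and no GC box, and the Lrrtm3 window neither. The window of the second Ptprs start, not printed, held 3 GC boxes and no E-box. Over 32851 promoter windows of the same length, 32.7% held a GC box and 6.02% an E-box. The printed windows of Ptprf, Ptprs and Gpr158 held 18, 15 and 14 CpG pairs, against a median of 6 over all windows, and Lrrtm3 had 6. Of all windows, 78.3%, 72.7% and 70.6% held fewer than those of Ptprf, Ptprs and Gpr158, so such counts were not rare. These are descriptions of the letters in these windows, and no binding or methylation was measured. Promoter entries were matched for 5 of the 9 members, the fifth being Lrrtm4, whose 2 listed windows held 3 and 8 CpG pairs and neither motif. Nptx1, Nptx2, Nptxr and Ptprd had none.

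All 9 members had a higher mean log2 level in the GPC6 tumors than in the 3xCR tumors, where 48.3% of all 14782 genes did. Nptxr entered the test only through GPC6 replicate 1, so its direction carries no weight. The other 8 members had a higher mean as well, as did all 15 genes of the pan-neuronal list. The members were chosen with earlier results of these data known, so these counts are descriptions only. The differences were unequal. They were large for Nptx1, Nptx2 and Gpr158 and small for Ptprs and Ptprf, and Nptxr was at the limit of detection in 3xCR. By limma on log2(normalized count + 1), 3 members (Nptx1, Nptx2 and Gpr158) had an unadjusted p under 0.05, where 2.74% of all genes were higher at that threshold, 1.92% were lower and 4.66% passed in either direction. No member and no gene (0%) passed an adjusted p under 0.05 (Benjamini-Hochberg over all genes tested). The adjusted p was 0.730 for every member but Lrrtm3, at 0.788. On whole reads, DESeq2 called 9 genes and edgeR none, and no member was among them. The median log2 fold change was 1.13 over the 9 members, or 0.99 without Nptxr, and -0.019 over all genes.

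The lowest of the 7 values was in 3xCR replicate 4 for 9 of 9 members, and the highest was in GPC6 replicate 1 for 5 of them. The mean stayed higher in GPC6 for all 9 when any single library was left out. Without 3xCR replicate 4, however, the number of members at an unadjusted p under 0.05 was 0 instead of 3, while the share of all genes at that threshold went from 4.66% to 0.819%. It was also 0 when GPC6 replicate 1 (3.17% of all genes) or GPC6 replicate 3 (2.60%) was left out, and 1 when 3xCR replicate 3 (2.55%) was. It was 5 without 3xCR replicate 2 (7.67%), 4 without GPC6 replicate 2 (9.46%) and 3 without GPC6 replicate 4 (7.84%). The counts without GPC6 replicate 2 and without GPC6 replicate 4 include Nptxr, which the filter kept only through GPC6 replicate 1.

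**Figure D1:**
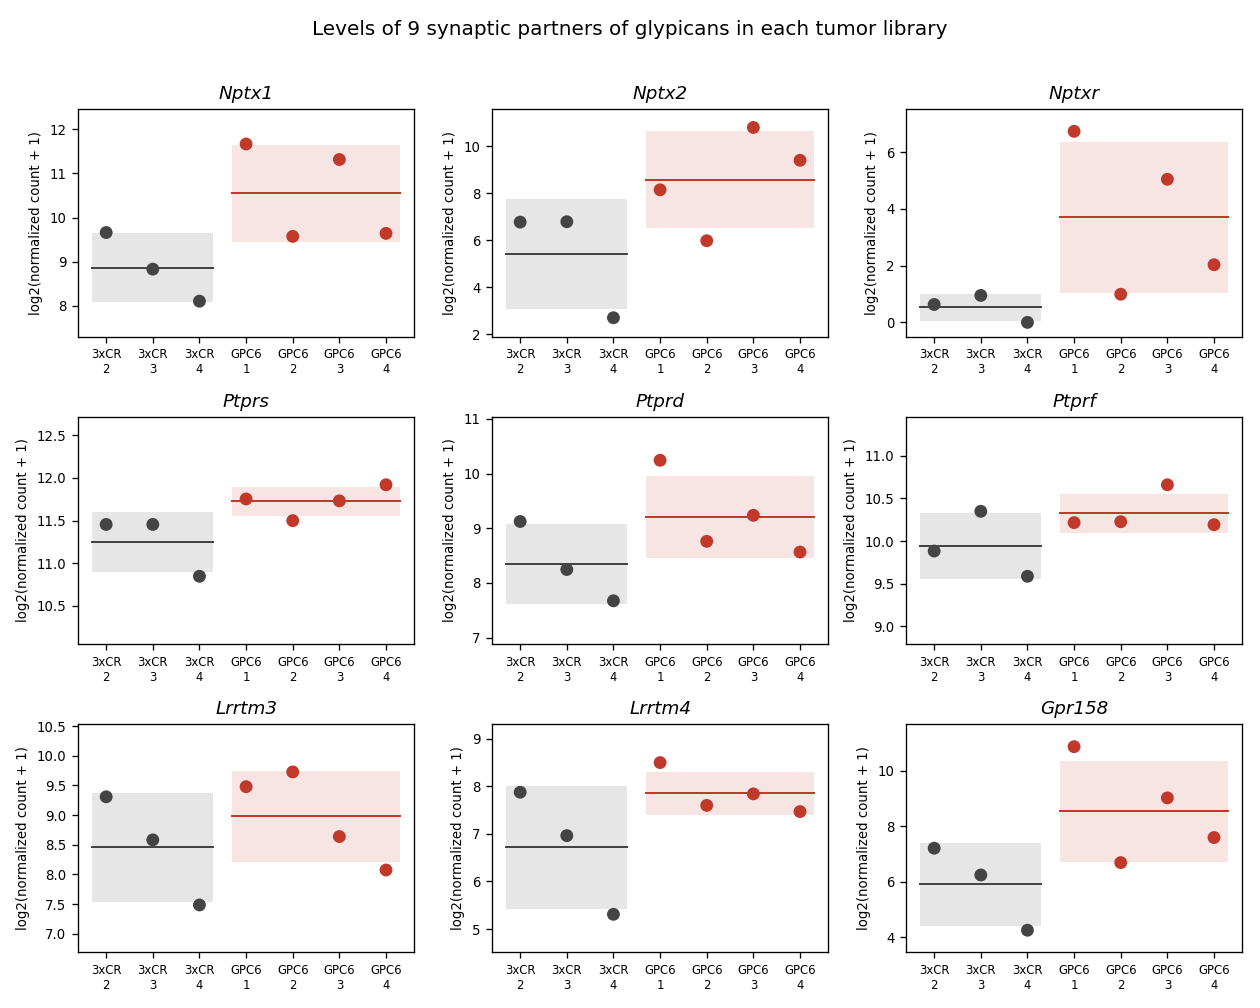
Level of each member, as log2(normalized count + 1), in the 3 libraries of 3xCR tumors (grey) and the 4 of GPC6 tumors (red), with a line at the group mean and a band of 1 SD on either side. The vertical range differs between panels. 3xCR replicate 4 is the lowest point in all 9 panels, and the groups do not overlap for Ptprs or, by a margin of single reads, for Nptxr.

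Nptx1 encodes a secreted pentraxin that clusters AMPA receptors at excitatory synapses. It read 808, 455 and 275 normalized counts in 3xCR replicates 2 to 4, and 3238, 761, 2541 and 797 in GPC6 replicates 1 to 4. GPC6 replicates 1 and 3 stood far above every control, while replicates 2 and 4 lay just below the highest control. The fitted log2 fold change was 1.68 (SE 0.62, 95% interval 0.25 to 3.11), and the two-sided exact permutation p was 0.171. The fold change was 1.31 without GPC6 replicate 1.

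Nptx2 encodes the activity-regulated pentraxin, an immediate early gene product best known from parvalbumin interneuron synapses. Its values spread most widely of the members detected in every library, from 5.5 normalized counts (4 reads) in 3xCR replicate 4 to 1785 in GPC6 replicate 3. The other control libraries read 109 and 110, and GPC6 replicates 1, 2 and 4 read 283, 62.2 and 677. Of the 4 GPC6 libraries 3 lay above all controls, and replicate 2 lay below 2 of them. The log2 fold change was 3.16 (SE 1.34, 95% interval 0.05 to 6.27, exact permutation p = 0.171), and it was 1.80 without 3xCR replicate 4. The libraries of highest Nptx2, GPC6 replicates 3 and 4, were also those of highest Gpc6. This was seen after the values were known and was not tested.

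Nptxr encodes the pentraxin receptor, a membrane-bound relative that anchors pentraxin complexes. It was close to undetected in the controls, with 1, 1 and 0 reads in 3xCR replicates 2 to 4, against 68, 1, 36 and 3 reads in GPC6 replicates 1 to 4. Per unit of sequencing this is a ratio of 52.1 of GPC6 over 3xCR (95% counting interval 14.1 to 435), 23.3 without GPC6 replicate 1 and 3.65 (0.523 to 40.4) without GPC6 replicates 1 and 3. The excess of reads lay in those libraries. The intervals pool the reads of a group and leave out the spread between tumors, so no test of the groups is drawn from them. The GPC6 values, 105, 0.99, 31.9 and 3.09 normalized counts, did not overlap the control values of 0.55, 0.93 and 0, but the margin between GPC6 replicate 2 and the highest control rested on single reads. The fitted log2 fold change of 3.17 (SE 1.44) depends on the pseudocount. The filter kept the gene only through GPC6 replicate 1, so no test is drawn from this fold change. Nptxr shares 890 exon bases (17.2% of its exons) with Npcd on the same strand, so part of its reads may belong to either gene.

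Ptprs encodes the LAR-type phosphatase that heparan sulfate proteoglycans bind on axons and on growth cones. It was the most abundant member by normalized count, above 96.7% of the genes tested. It read 2804, 2805 and 1840 normalized counts in 3xCR replicates 2 to 4, and 3450, 2892, 3397 and 3871 in GPC6 replicates 1 to 4. The groups did not overlap, with GPC6 replicate 2 closest to the controls. Leaving Nptxr aside, 1 of the other 8 members was separated in this way, against 2.80% of all genes with all GPC6 libraries above all 3xCR libraries and 3.52% with all below. The shift was small, a log2 fold change of 0.47 (SE 0.23, 95% interval -0.06 to 1.01), and 0.27 without 3xCR replicate 4. The exact permutation p was 0.057, the smallest that 3 against 4 libraries allow.

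Ptprd encodes the relative of Ptprs that many postsynaptic adhesion proteins bind, and Ptprf encodes LAR itself, which is also made outside neurons. Ptprd read 557, 302 and 203 normalized counts in the 3xCR libraries and 1212, 433, 602 and 378 in the GPC6 libraries, where replicate 1 again stood highest. Ptprf read 943, 1303 and 768 in the 3xCR libraries and 1189, 1197, 1617 and 1169 in the GPC6 libraries. Both genes overlapped between the groups, and for Ptprf the second control lay above 3 of the 4 GPC6 libraries. The log2 fold change was 0.85 for Ptprd (SE 0.48) and 0.38 for Ptprf (SE 0.24), each with an exact permutation p of 0.229. Without 3xCR replicate 4 these were 0.52 and 0.21. Ptprs and Ptprf were the steadiest of the members, with a highest library 2.10 and 2.11 times the lowest, against 5.97 for Ptprd, 11.8 for Nptx1 and 104 for Gpr158.

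Lrrtm3 and Lrrtm4 encode leucine-rich repeat proteins of the postsynaptic membrane that bind neurexins and heparan sulfate. Lrrtm3 read 633, 382 and 178 normalized counts in the 3xCR libraries and 713, 847, 397 and 269 in the GPC6 libraries. It was the 1 member that peaked in GPC6 replicate 2, the library with the highest score for oligodendrocyte precursor genes (1.30, against -1.07 to 0.71 in the others), and the part of those cells in its level was not tested. Lrrtm4 read 233, 124 and 38.7 in the 3xCR libraries and 360, 193, 228 and 176 in the GPC6 libraries, with 3xCR replicate 4 far below the rest. Neither gene separated the groups. The log2 fold change was 0.52 for Lrrtm3 (SE 0.53, exact permutation p = 0.457) and 1.13 for Lrrtm4 (SE 0.59, p = 0.229). Without 3xCR replicate 4 they were 0.034 and 0.43. Without both GPC6 replicates 1 and 2 the sign for Lrrtm3 turned, to -0.10. The library kit keeps the strand, but whether the counting used it is not given in the sources used here, and Lrrtm4 shares 1543 exon bases (25.1%) with the antisense gene Gm4409.

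Gpr158 encodes an orphan receptor that binds glypicans and recruits the regulator of G protein signaling Rgs7. It read 146, 74.4 and 18.0 normalized counts in 3xCR replicates 2 to 4, and 1864, 102, 517 and 191 in GPC6 replicates 1 to 4. Replicates 1, 3 and 4 of GPC6 lay above all controls and replicate 2 lay among them. The log2 fold change was 2.64 (SE 1.06, 95% interval 0.19 to 5.10, exact permutation p = 0.114). Leaving out GPC6 replicate 1 gave 1.87, and leaving out 3xCR replicate 4 gave 1.82. Gpr158 shares 601 exon bases (7.36%) with the antisense gene Gm13327.

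Per kilobase of exon, the order of the members was not the same in both groups. In 3xCR, Ptprs stood first with a mean of 166 normalized counts per kb, followed by Ptprf at 110, Nptx1 at 98.2 and Lrrtm3 at 93.6. After these came Nptx2 at 29.4, Lrrtm4 at 21.5, Ptprd at 15.5, Gpr158 at 9.74 and Nptxr at 0.095. In GPC6, Nptx1 stood first at 352, then Nptx2 at 277, Ptprs at 227, Ptprf at 141, Lrrtm3 at 131, Gpr158 at 81.8, Lrrtm4 at 38.9, Ptprd at 28.7 and Nptxr at 6.82. Neighbours in these orders overlapped over their libraries, except Gpr158 and Nptxr in 3xCR and Ptprs and Ptprf in GPC6. The order depended on the length used, here all exons of a gene merged. By the longest transcript, tried after the data were seen, Ptprs stood first in both groups, at 362 in 3xCR and 496 in GPC6, and Ptprd (35.8) passed Lrrtm4 (29.8) and Nptx2 (29.4) in 3xCR.

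Because the groups differed in neuronal RNA, each member was also read relative to the pan-neuronal list, as its log2 level minus the mean log2 level of the 15 list genes in the same library. The list mean itself was 1.48 higher in GPC6 on the log2 scale, so this subtraction lowers the difference of every gene by the same amount, and its sign only says whether a gene's fold change in level was above or below that of the list. The fold changes of Nptx2, Nptxr, Gpr158 and Nptx1 were above it, by 1.68, 1.69, 1.16 and 0.20, and those of the other 5 were below it, where 95.7% of all genes were. The value of Nptxr rests on 0 or 1 reads in each 3xCR library and was 0.48 with a pseudocount of 5. None of the 9 reached an unadjusted p under 0.05 in limma, where 13.8% of all genes did. Of those genes only 6 were higher in GPC6 on this scale and 2033 were lower, as the subtraction lowers every difference. The standard errors of the members on this scale lay between 0.98 and 1.12, against 0.23 to 1.44 for the level. Every gene carries the spread of the same list mean, and the intervals and calls of this fit rest largely on that spread. Limma pools the spread over genes as if they were independent. The intervals of this fit are therefore narrower, and its p-values smaller, than 7 libraries warrant. Of all genes tested 1 (0.00676%) passed an adjusted p under 0.05 in this fit. It was Xist, named after its value was seen, at a log2 difference of -6.69 and an adjusted p of 0.00795, which is too small for the same reason. The study used animals of both sexes, but the sex behind each library is not given. The part of sex in this difference, and in those of the members, was not tested.

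**Figure D2:**
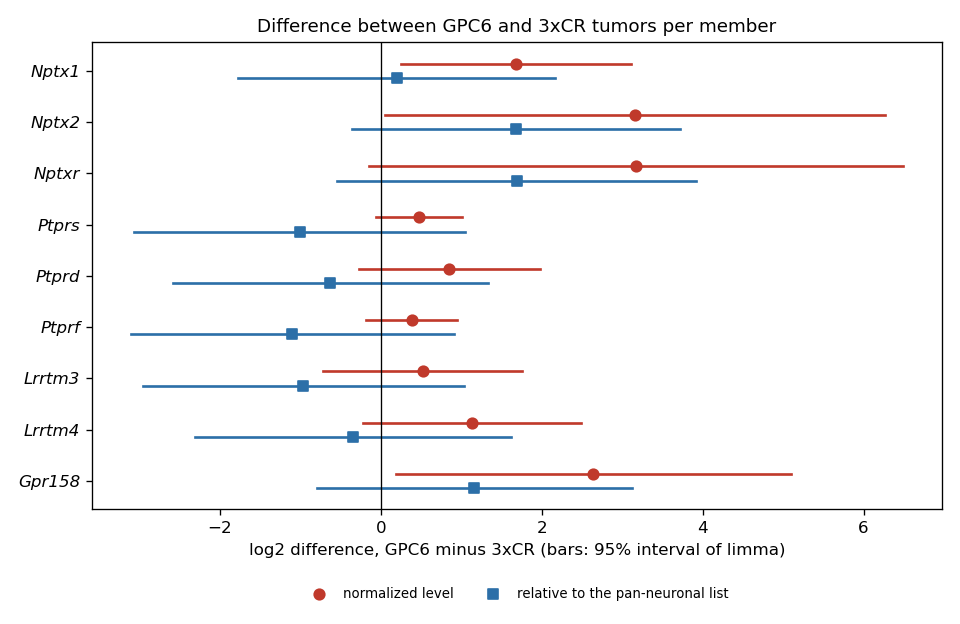
Log2 difference of GPC6 minus 3xCR tumors for each member, from normalized levels (red circles) and relative to the pan-neuronal list (blue squares), with bars for the 95% interval of limma. All 9 red points lie right of 0, each blue point lies 1.48 left of its red one, and all blue bars cross 0. The blue bars are narrower than 7 libraries warrant, because all genes share the spread of the list mean.

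Nptx1 followed the list closely except in GPC6 replicate 2, where it stood at 1.00 against at most 0.38 in the others. Its relative level ran from -0.0019 to 0.34 in 3xCR and from 0.016 to 1.00 in GPC6, a span of 1.00 over all 7 libraries where the level itself spanned 3.55. Ptprs did the reverse, with a span of 2.81 on the relative scale and 1.07 on its own. Nptx2 kept a wide span on both. On the relative scale the 3xCR libraries gave -2.54, -2.04 and -5.24 and the GPC6 libraries -3.50, -2.59, -0.13 and -0.16, in the order of their replicates. GPC6 replicates 3 and 4 thus stood well above every other library, replicate 1 lay below 2 of the 3 controls, and the groups overlapped (two-sided exact permutation p = 0.343).

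Leaving out Nptxr, whose relative level in 3xCR rests on 0 or 1 reads, 1 of the other 8 members did not overlap between the groups on this scale, against 0.176% of all genes with GPC6 higher and 4.04% with GPC6 lower. It was Gpr158, which lay between -3.70 and -2.12 in 3xCR and between -1.98 and -0.78 in GPC6, a gap of 0.14 log2 units. The two-sided exact permutation p was 0.057, the smallest this design allows, unadjusted for the number of members. Because the subtraction lowers the difference of every gene by 1.48, few genes can lie higher on this scale. The share of 0.176% is therefore no measure of how unusual Gpr158 is among neuronal genes. The separation depended on the list chosen. Against the 3 pan-neuronal genes of highest mean Gpr158 was also separated, by 0.044, and against 7 genes of excitatory cortical neurons 0 of the 9 members did, where Gpr158 ran from 0.33 to 1.85 in 3xCR and from 0.24 to 3.69 in GPC6. Whether overlaps changed with the list was asked after the data were seen.

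Over the 7 libraries, members differed in how far they moved with the pan-neuronal score. The correlation of log2 level with the score was r = 0.97 for Gpr158 (exact permutation p = 0.000595, adjusted over all genes 0.0299) and 0.96 for Nptx1 (p = 0.00159, adjusted 0.0354). Leaving out Nptxr, 2 of the other 8 members thus passed an adjusted p under 0.05, against 8.79% of all genes. Nptxr had r = 0.97, but it was tested only because of GPC6 replicate 1, the library of highest score, and its value is a description. Next came Ptprd at 0.90, with an adjusted p of 0.0507, then Lrrtm4 at 0.78, Nptx2 at 0.77, Ptprs at 0.71, Ptprf at 0.59 and Lrrtm3 at 0.38. The median over all genes was -0.086, with the middle 50% of genes between -0.59 and 0.58.

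The ranks gave a like order among the first. Spearman's rho was 0.96 for Gpr158 (exact permutation p = 0.00278, adjusted 0.0715), 0.93 for Nptx1 (p = 0.00675, adjusted 0.103) and 0.86 for Nptx2 (p = 0.0238, adjusted 0.196), so none passed after adjustment. Without GPC6 replicates 1 and 3, the 2 libraries farthest from the median score, r was 0.93 for Gpr158 and 0.82 for Nptx1 over the 5 that remained. It was 0.94 for Nptx2 and 0.89 for Ptprs. Lrrtm3 fell to 0.28. All points of one library share its size factor and its mix of cells.

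**Figure D3:**
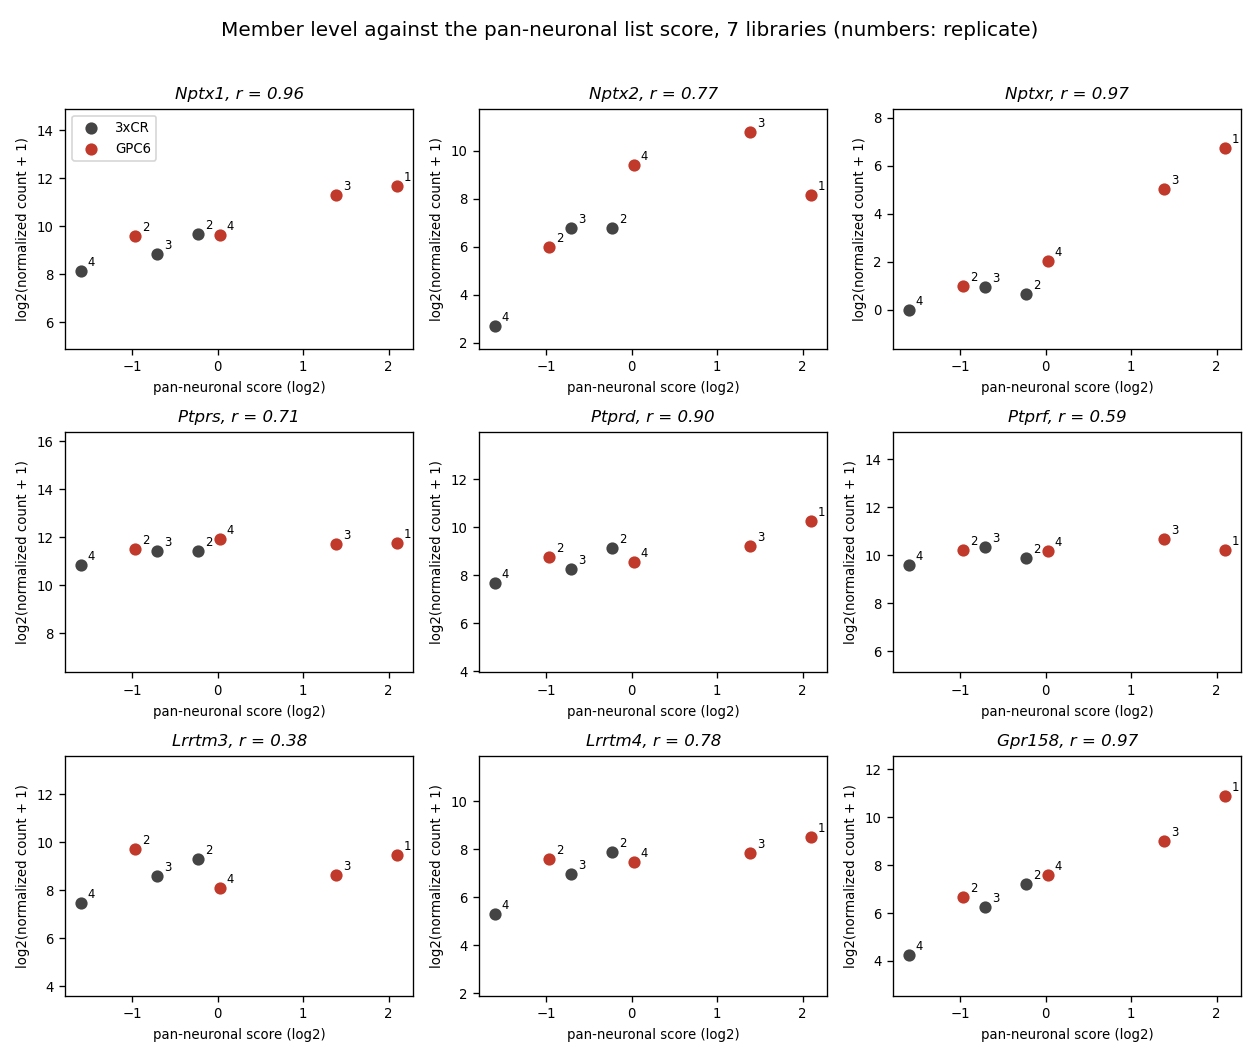
Level of each member, as log2(normalized count + 1), against the pan-neuronal score (log2, mean over the libraries at 0) in 7 libraries, grey for 3xCR and red for GPC6, with the replicate number beside each point. Every vertical axis spans 10 log2 units, so slopes compare between panels. Gpr158, Nptxr and Nptx1 climb with the score, Ptprs and Ptprf are nearly flat, and Nptx2 is higher in GPC6 replicates 3 and 4 than in GPC6 replicate 1.

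The relative make-up of the families gave 7 shares of the family total per kilobase, which do not depend on the size factors. Nptx2 took 21.6%, 33.1% and 3.97% of the pentraxin total in 3xCR replicates 2 to 4 and 14.8%, 14.4%, 58.8% and 63.5% in GPC6 replicates 1 to 4. In GPC6 replicates 3 and 4 it was the leading pentraxin, and in the other 5 libraries Nptx1 was. The mean share of Nptx2 was 19.6% ± 14.7 (SD, n = 3) in 3xCR and 37.9% ± 26.9 (SD, n = 4) in GPC6 (two-sided exact permutation p = 0.40). Nptxr never took more than 2.70%.

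No difference in the make-up of the phosphatase family was detectable. Ptprs held 57.0% ± 2.4 (SD, n = 3) of it in 3xCR and 57.2% ± 4.9 (SD, n = 4) in GPC6 (exact permutation p = 0.971). Ptprf held 37.8% ± 4.5 and 35.6% ± 4.8 (exact permutation p = 0.457), and Ptprd 5.25% ± 2.18 and 7.16% ± 3.89 (exact permutation p = 0.571). The highest Ptprd share, 12.9%, was that of GPC6 replicate 1. Of the pair Lrrtm3 and Lrrtm4, Lrrtm3 held 82.8% ± 3.8 in 3xCR and 75.2% ± 7.8 in GPC6 (exact permutation p = 0.171). The smallest p adjusted over the 7 shares was 0.60.

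**Figure D4:**
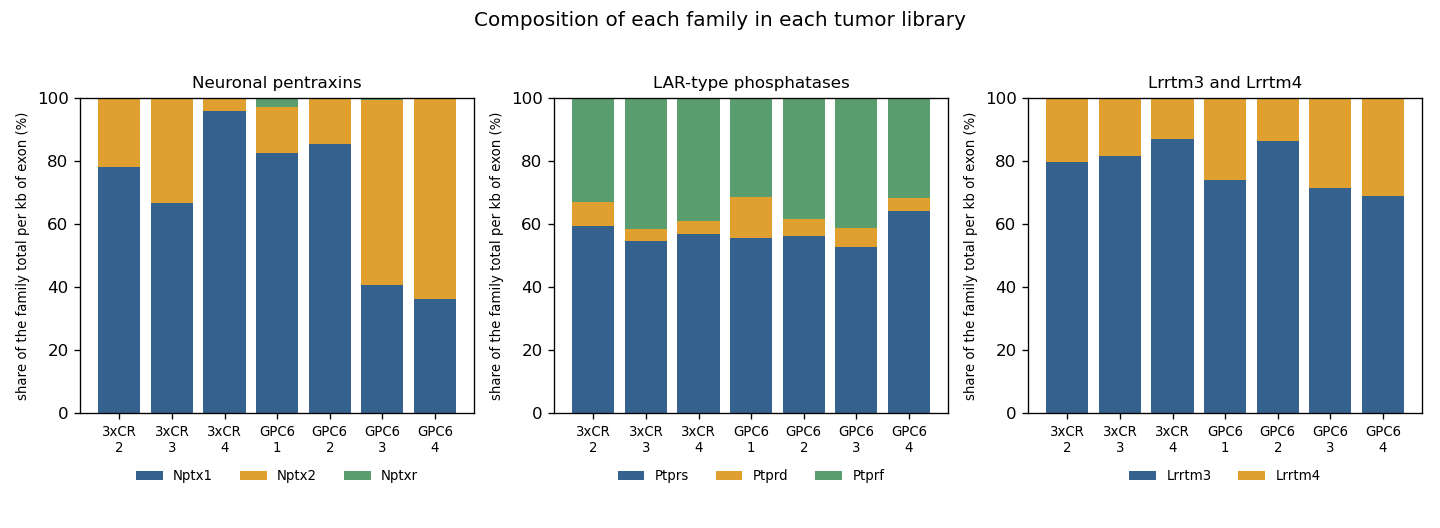
Share of each family total held by each member in every library, from normalized counts per kilobase of exon, with bars stacked from 0 to 100%. Nptx2 (orange, left) holds 58.8% and 63.5% in GPC6 replicates 3 and 4, and Ptprs (blue, middle) holds between 52.7% and 64.2% in every library.

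The genes known to work with each member were read from lists of their binding partners, beside which the shares over all genes were 48.3% with a higher mean in GPC6 and 4.66% at an unadjusted p under 0.05. Of 8 pentraxin partners, the 4 AMPA receptor subunits had a higher mean in GPC6. The other 4, which are the complement genes C1qa, C1qb and C1qc, whose products pentraxins bind, and the protease gene Adam17, had a lower one. At an unadjusted p under 0.05, Gria2 (log2 fold change 1.40, SE 0.58) and Gria3 (1.31, SE 0.47) were higher, and C1qa (-1.07, SE 0.38) and C1qc (-0.87, SE 0.34) were lower. None passed after adjustment over all genes (adjusted p = 0.730 for each). Gria3 read 840, 666 and 209 normalized counts in 3xCR and 1492, 1168, 1428 and 876 in GPC6, without overlap. Gria1, the subunit that Nptx1 is known to recruit, had the largest fold change of the list, 1.71 (SE 0.92), with 825, 306 and 153 in 3xCR and 4550, 646, 1569 and 327 in GPC6. C1qa read 10569, 13293 and 23328 in 3xCR and 4563, 7016, 8593 and 9151 in GPC6, again without overlap. Microglia make C1q, and all 6 genes of a microglia list were lower in GPC6, from a summed 11736 to 15913 normalized counts in 3xCR to 7721 to 10779 in GPC6. Their part in the level of C1q was not tested.

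Of 17 binding partners of the LAR-type phosphatases, postsynaptic adhesion proteins and proteins of the axon's interior such as liprins, 14 had a higher and 3 a lower mean in GPC6, with a median log2 fold change of 0.52. Slitrk3, which organizes inhibitory synapses through Ptprd, gave 1.36 (SE 0.52), and Lrfn5, an adhesion protein of the SALM family, gave 2.47 (SE 0.89). These were the 2 genes of the list at an unadjusted p under 0.05, and both had an adjusted p of 0.730. Lrfn5 read 42.2, 24.2 and 6.91 normalized counts in 3xCR and 430, 50.4, 145 and 50.4 in GPC6, without overlap. Lrrc4b, the most abundant of the list, gave 0.45 (SE 0.39). Il1rap gave the lowest value, -0.57 (SE 0.54), with its highest level, 2402, in GPC6 replicate 2.

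All 6 genes on the partner list of Lrrtm3 and Lrrtm4, the neurexins, 2 Lrrtm relatives and the scaffold gene Dlg4, had a higher mean in GPC6, at a median of 0.87, and 0 had an unadjusted p under 0.05. The smallest difference was that of Lrrtm2, 0.30 (SE 0.56). The largest was that of Nrxn3, with 318, 148 and 88.4 normalized counts in 3xCR and 1311, 367, 607 and 150 in GPC6. Nrxn2, the most abundant, read 3244, 1192 and 698 normalized counts in 3xCR and 3660, 3179, 2348 and 668 in GPC6, with the lowest library in the GPC6 group. The 4 genes on the list of Gpr158, which hold its relative Gpr179 and parts of the Rgs7 complex, were also all higher at a median of 0.85, none at an unadjusted p under 0.05. Rgs7bp, which anchors that complex to the membrane, gave 1.38 (SE 0.62), Gnb5 0.78 (SE 0.53) and Gpr179 0.53 (SE 0.80).

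For the most abundant member of each family, the 3 genes most like it over the 7 libraries were sought among 12624 genes with a mean of at least 50. For Nptx1 they were Rapgefl1 (r = 0.997), Cpne5 (0.996) and Wscd2 (0.995). For Gpr158 they were Gucy1b3 (0.998), Sptbn4, a spectrin of the axon initial segment (0.996), and Add2 (0.995). The genes most like Lrrtm3 were Csmd3 (0.991), Cdh10, a cadherin (0.988), and Clasp2, which binds growing microtubules (0.986). Those most like Ptprs were 2310067B10Rik (0.989), Ndufaf1, an assembly factor of mitochondrial complex I (0.983), and Gm5124 (0.982). These values only describe the 7 libraries. Among the members themselves r ran from 0.25, between Nptx2 and Lrrtm3, to 0.97, between Nptx1 and Gpr158.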

How the data were processed

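RNA-Seq of endpoint tumors gave 1 library per brain, 3 of 3xCR and 4 of GPC6, grouped by the sample labels. The authors aligned reads to mm10 with STAR 2.5.0a, counted them per gene with Rsamtools and GenomicFeatures and normalized with DESeq2 1.20.0. The deposited values are a normalized signal per gene, each library's counts over its size factor, without correction for gene length. The annotation and the rule for reads that fit several genes are not given in the sources used here. Labels and paper differ in RNA amount and extraction kit, and labels name no batch.

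Entries whose names had become dates (25 of 19282, 0.254% to 0.361% of reads) were left out. Whole reads were recovered for 100% of values (tolerance 0.01). Levels were compared on the scale log2(normalized count + 1) by limma (version 3.58.1, R 4.3.3) with a mean-variance trend, two-sided, with Benjamini-Hochberg adjustment over 14782 genes. Shares were compared by exact permutation tests, as were, added after seeing the data, the levels and relative levels of single members. p-values measure the spread between these tumors, and intervals from reads cover counting error only. Alternatives included edgeR 4.0.16 (quasi-likelihood), DESeq2 1.42.0 and voom on reads, other pseudocounts, filters and scalings, library weights, and leaving out each library. Scripts were tested on simulated data. Exon lengths came from the GENCODE annotation of GRCm38, which matched 96.0% of symbols.

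Members and lists were chosen with earlier results of these data known. Named beside the members were Gpc6, from each partner list the gene of highest mean, those of largest and smallest fold change and any at an unadjusted p under 0.05, and the 3 genes most like the most abundant member of each family. Of cell type lists, scores and defining markers were used.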

Additional observations from a re-analysis of the deposited data

Results flagged for a closer look

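In the GPC6 group 3 of 26 quantities examined for the members had a library set apart from the other 3 by Dixon's test at 95%, where chance gives about 1 in 20, or 1.3. The log2 level of Ptprf had a gap of 0.925 of the group's range, with 1617 normalized counts in GPC6 replicate 3 and 1169 to 1197 in the others. The share of Nptxr in the pentraxin total had a gap of 0.844, with 2.70% in GPC6 replicate 1 and 0.112% to 0.516% in the others. The filter kept Nptxr only through that library, so this flag, though counted among the 3, carries no weight. The level of Gpr158 relative to the pan-neuronal list had a gap of 0.929, with -0.78 in GPC6 replicate 1 and -1.98 to -1.89 in the others.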

How the results depend on the processing

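The number of genes past an adjusted p under 0.05, 0 by limma, was 1962 with weights per library and 9 with DESeq2, which gave Nptxr and Lrrtm4 no adjusted p and the other members 0.267 to 0.781. The weights (arrayWeights) gave 8.71 to 3xCR replicate 3, 4.47 to GPC6 replicate 3 and 0.301 to 0.849 to the other 5 libraries. With them in limma, Nptx1, Nptx2, Ptprd and Gpr158 passed (adjusted p = 0.0290, 0.0322, 0.0435 and 0.0290), where 1962 of 14782 genes did. Nptxr was also under the threshold (0.0290), but the filter kept it only through GPC6 replicate 1, so no test is drawn from it. The number of members at an unadjusted p under 0.05, 3 at first, ran from 0 to 5 when 1 library was left out. It was 7 with the weights (34.5% of all genes), 4 with edgeR (6.70%) and 4 with DESeq2 (12.1%), each counting Nptxr. It was 1 with voom (3.38%) and 0 with the pan-neuronal score as covariate (2.09%). The log2 fold change of Lrrtm3 was -0.10 without both GPC6 replicates 1 and 2. Nptxr was left out by a filter at a mean of 50.

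Relative to the pan-neuronal list, the 1 gene called became 0 with the excitatory cortical list, 7 with the 3 pan-neuronal genes of highest mean, 0 with a pseudocount of 5, and 0 to 20 without 1 library. The relative difference of Nptx1 turned to -0.43 with the excitatory list, -0.19 with the 3 genes and -0.0097 without GPC6 replicate 2 (-0.0097 to 0.32 over all libraries left out). The 3 correlations past adjustment included that of Nptxr. Of these, 0 were left with the excitatory list, 0 with ranks, and 0 to 1 without 1 library, where 6 libraries allow fewer orders. The difference in the share of Ptprs, 0.22 percentage points, was -1.02 without length correction, -0.62 with the longest transcript, and -2.09 to 1.72 without 1 library. The cause of these changes was not tested.

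The labels give both groups replicate numbers 2, 3 and 4, and deviations of same-numbered libraries correlated at r = -0.194, 0.118 and 0.296, so not every pair deviated together. Of the 3 3xCR libraries 1, replicate 4, correlated best with its own number, and the numbers were not taken as pairs. With a replicate block 0 genes passed in the comparison of levels, with 678 at an unadjusted p under 0.05 instead of 689 and 1 member (Nptx1) instead of 3, and 1 gene relative to the pan-neuronal list. Depth limits Nptxr and, in 3xCR replicate 4, Nptx2 (4 reads) and Gpr158 (13 reads).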

Other observations

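All 6 glypicans were tested. Gpc6, the gene added by design, was higher in the GPC6 tumors at an unadjusted p under 0.05 in limma. Of the others only Gpc3 was, with overlap between the groups, where 2.74% of all genes were. No glypican passed an adjusted p under 0.05. Gpc3, a glypican of fetal tissues, read 35.1, 57.7 and 11.1 normalized counts in 3xCR and 92.7, 38.5, 205 and 122 in GPC6, a log2 fold change of 1.74 (SE 0.71). Gpc1, the most abundant of the family, gave -0.24 (SE 0.30), and Gpc4, the glypican best known as a partner of Ptprs, Lrrtm4 and Gpr158, gave -0.65 (SE 0.55), with its lowest value, 48.4, in GPC6 replicate 2.

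Markers of other cells were also read. All 7 genes of an excitatory cortical list and all 7 of an interneuron list had a higher mean log2 level in GPC6, and 6 of 7 in each list did without GPC6 replicate 1. All 15 proliferation genes had a lower mean log2 level in GPC6, but this rested on GPC6 replicate 1 (score -2.92). Without it 12 of the 15 were higher, and by mean normalized count 3 of the 15 were higher with all libraries. The hypothalamic genes Avp and Oxt read 541 and 428 normalized counts in GPC6 replicate 1 and at most 7.10 in any other library, so their difference is that of 1 library. No gene of these lists was at 0 in all libraries. Their part in the levels of the 9 genes was not tested.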
